A study of Mus musculus with 10 samples.

Results

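The scaffold of the hair cell active zone was followed through 10 genes: Ctbp2, Bsn, Pclo, Rims1, Rims2, Rimbp2, Erc1, Erc2, Unc13a and Unc13b. They were picked by gene symbol for the place of their products at the presynaptic membrane, and all 10 were found among the 48440 genes of the expression table. IHCs, the inner hair cells of the cochlea, and OHCs, its outer hair cells, were drawn into pipettes one by one, by their shape, from dissociated organs of Corti of CBA/J mice aged 28 to 32 days. The labels name no transgene and no treatment in either group. Each library was made from about 1000 pooled cells, and 2 IHC and 3 OHC libraries were each read in 2 lanes. The labels call the libraries biological replicates, and the cells of many mice were pooled in them. The p-values thus measure the spread between these pools. The paper collected IHCs and OHCs from each mouse, so IHC and OHC pools may share mice. Which mice went into which pool is not given, and the main test treated the libraries as unpaired. Levels are given in RPKM (reads scaled to exon length and to the mapped reads of a lane) as the mean of the lanes of a library, and errors are SDs over 2 IHC or 3 OHC libraries.

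At a ribbon synapse, vesicles are held near the membrane on an electron-dense body, the ribbon, so that release can follow a graded receptor potential without pause. The ribbon is built of RIBEYE, a product of the Ctbp2 gene that joins a domain of its own to the enzyme-like domain of the corepressor CtBP2. Bassoon (Bsn) anchors the ribbon to the membrane, and a product of Pclo, the gene of its giant relative piccolo, sits on the ribbon. RIM proteins (Rims1, Rims2), RIM-binding protein (Rimbp2) and the ELKS proteins (Erc1, Erc2) gather calcium channels and vesicles at the release site, and the Munc13 proteins (Unc13a, Unc13b) prime vesicles at conventional synapses. IHCs pass nearly all auditory information to afferent fibres through such synapses, whereas OHCs amplify sound-evoked motion and have few afferent contacts.

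Promoter windows are shown for the genes on which the results below turn by position in the gene or by pair. RefSeq (GRCm38.p6) gave 10 windows for 9 of the 10 genes, each running from 250 bases before to 50 bases after an annotated start. Ctbp2 has a pair of windows, which are shown because the start decides whether RIBEYE can be made. Both lie on the minus strand, the first at chr7:133015198-133015497 and the second at chr7:133081811-133082110. In the GENCODE M21 annotation, transcript Ctbp2-214 starts in the first window with an exon of 1731 bases (chr7:133013518-133015248), the long single exon from which the domain particular to RIBEYE is read. No GENCODE M21 transcript starts in the second window, which also lies within the annotated gene. Coding transcripts such as Ctbp2-202 (first exon chr7:133111741-133111791) start further upstream, and their starts are not shown. By order along the gene, the labels call the first the start inside the gene and the second the upstream start. Capitals mark the 50 bases from the annotated RefSeq start onward.
Ctbp2, start inside the gene: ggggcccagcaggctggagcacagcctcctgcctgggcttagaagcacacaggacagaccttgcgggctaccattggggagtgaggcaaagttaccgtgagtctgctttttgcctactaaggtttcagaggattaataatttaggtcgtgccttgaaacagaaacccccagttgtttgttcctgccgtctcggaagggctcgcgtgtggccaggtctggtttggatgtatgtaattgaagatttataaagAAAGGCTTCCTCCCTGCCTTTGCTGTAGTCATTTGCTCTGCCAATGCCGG
Ctbp2, upstream start: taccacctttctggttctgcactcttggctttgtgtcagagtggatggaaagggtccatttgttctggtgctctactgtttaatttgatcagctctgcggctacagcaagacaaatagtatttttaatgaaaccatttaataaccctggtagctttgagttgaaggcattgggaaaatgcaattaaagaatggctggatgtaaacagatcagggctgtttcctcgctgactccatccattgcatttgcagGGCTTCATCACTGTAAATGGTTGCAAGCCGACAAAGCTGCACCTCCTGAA

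Unc13a and Unc13b are shown as a pair of relatives of which Unc13b passed the test between the cell types and Unc13a did not. The Unc13a window lies at chr8:71671708-71672007 (minus strand) and the Unc13b window at chr4:43058703-43059002 (plus strand). Motifs were searched on both strands as exact letters: the left arm (TTCAGCACC) and the right arm (GGACAGCGC) of RE1, the element bound by the neuronal gene repressor REST, and the GC box (GGGCGG). In the Unc13a sequence capitals mark the RE1 arms, which read on the opposite strand, and in the Unc13b sequence they mark the GC boxes.
Unc13a: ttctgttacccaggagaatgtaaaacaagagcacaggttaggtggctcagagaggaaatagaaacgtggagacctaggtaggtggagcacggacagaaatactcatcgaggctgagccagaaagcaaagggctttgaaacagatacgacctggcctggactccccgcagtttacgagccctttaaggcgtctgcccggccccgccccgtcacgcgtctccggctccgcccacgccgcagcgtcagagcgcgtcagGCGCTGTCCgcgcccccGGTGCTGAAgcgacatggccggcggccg
Unc13b: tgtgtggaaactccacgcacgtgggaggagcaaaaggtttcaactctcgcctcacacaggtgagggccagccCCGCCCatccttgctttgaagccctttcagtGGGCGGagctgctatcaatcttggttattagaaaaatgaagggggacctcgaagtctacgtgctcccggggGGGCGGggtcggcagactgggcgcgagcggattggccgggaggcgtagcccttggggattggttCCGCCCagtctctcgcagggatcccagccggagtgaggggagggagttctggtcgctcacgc

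Of the 10 windows, the Unc13a window was the one that held an RE1 arm, and it held both, with 8 bases between them and the nearer arm beginning at base 6 of the transcript. The 2 arms of the canonical element are 2 bases apart. Of 32851 RefSeq promoters of this length, 0.371% held the left arm, 0.405% the right arm and 5 (0.0152%) both, of which 2 had the spacing of Unc13a and 2 the canonical one. GC boxes were found in the windows of Pclo and Unc13b (4 each), Rims1 (3), and Erc1, Erc2 and Unc13a (2 each), and in 35.7% of all promoters. The Bsn and Rimbp2 windows and both Ctbp2 windows held none, and no match overlapped another motif. The Ctbp2 windows were the lowest of the 10 in G and C, with 43.7% for the upstream and 52.0% for the inner start, against 61.3% to 77.0% in the other 8 windows and a median of 52.7% over all promoters. CpG dinucleotides overlapped, with 3 and 8 in the Ctbp2 windows and 7 to 46 in the others. The starts of Ctbp2 further upstream in GENCODE M21 were not among these windows.

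Of the whole set, the divisor recovered from the RPKM steps was 19987044 to 23083994 reads per library. Of the 5 IHC markers (Slc17a8, Otof, Calb2, Slc7a14 and Tbx2), all 5 were higher in IHCs, with a summed level of 5447 to 5517 RPKM in IHC and 301 to 312 in OHC libraries. Of the 5 OHC markers used (Slc26a5, Ocm, Ikzf2, Lmod3 and Dnm3), all 5 were higher in OHCs, with 13366 to 14207 RPKM in OHC and 388 to 409.7 in IHC libraries. The libraries thus carried the markers of the cell type in their labels, and each kind of library also held markers of the other cell type. Markers of supporting cells summed to 1031 to 1033 RPKM in IHC and 577 to 582 in OHC libraries (6 of 9 higher in IHCs, 3 in OHCs). Among them Slc1a3 was at 131 and 7.67 RPKM in IHCs and OHCs and Fabp7 at 4.52 and 22.1. Markers of the cochlear wall, vessels and blood summed to 324 to 330 and 848 to 1307 RPKM (of 12 tested, 1 higher in IHCs and 10 in OHCs). Among these Otos was at 90.7 and 232 RPKM, S100a8 at 0.135 and 27.5 and the globin gene Hba-a1 at 99.0 and 325. The reads of Hba-a1 in lanes 1 and 2 were 2562 and 6985 in OHC 1, against 2014 and 2047 in OHC 2. They were 501 and 1286 in IHC 1 and 432 and 1211 in IHC 2. The highest OHC sum, that of OHC 1, thus rests in part on its second lane. The part of the cells named by these markers in the levels of the scaffold genes was not tested. The second lanes of IHC 1, IHC 2 and OHC 1 did not repeat the first lanes as closely as in the other libraries: 139, 141 and 154 genes were at 1 RPKM or more in 1 lane and at 0 in the other, against 22 in OHC 2 and 20 in OHC 3. Results for the scaffold genes are therefore also given without those 3 lanes where this changed them.

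**Figure D1:**
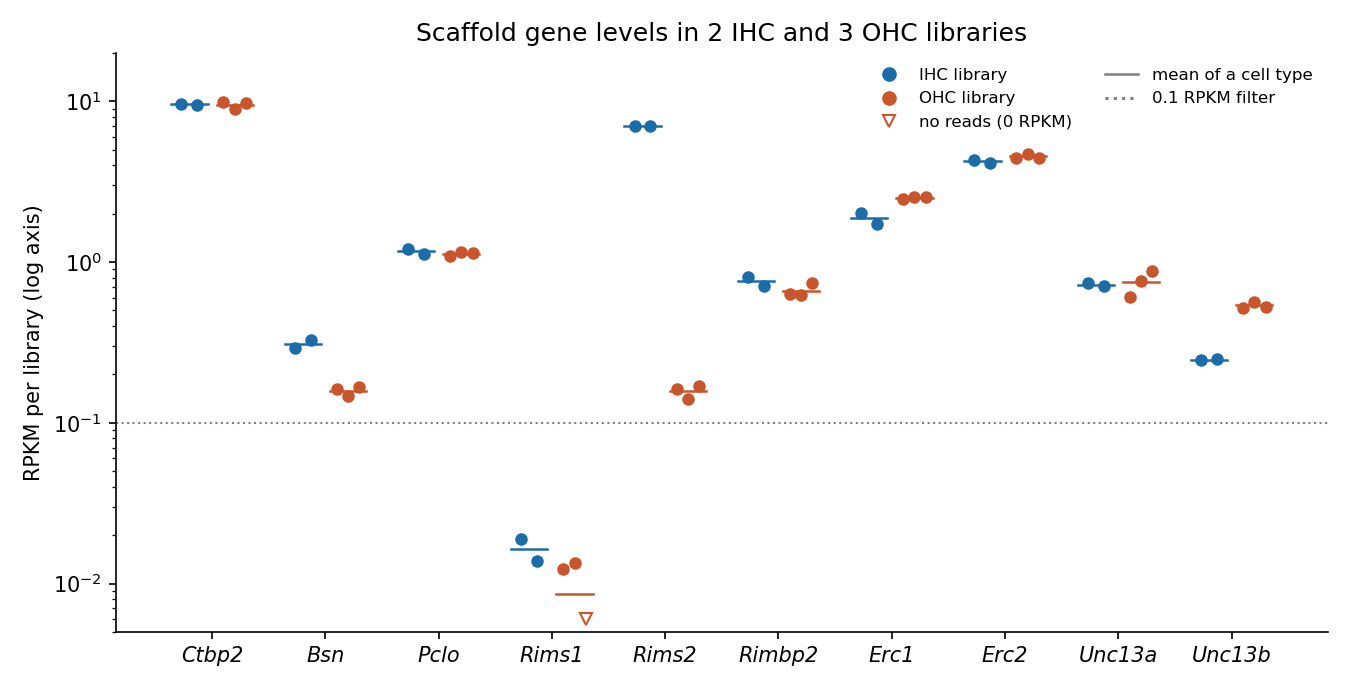
Level of each scaffold gene in every library, in RPKM on a log axis. Points are libraries (2 of IHCs, 3 of OHCs), short lines are the means of a cell type, the dotted line is the filter at 0.1 RPKM and the open triangle marks a library with no read. Rims2 is the gene whose IHC points (7.06 and 7.03) and OHC points (0.141 to 0.168) lie farthest apart.

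Of the 10 genes, 9 passed the filter (at least 0.1 RPKM in at least 2 libraries), and each of these 9 was above 0.1 RPKM in all 5 libraries. Rims2 and Bsn were higher in IHCs, Erc1 and Unc13b were higher in OHCs, and Ctbp2, Pclo, Rimbp2, Erc2 and Unc13a did not pass the test. Thus 4 of 9 genes passed at an adjusted p under 0.05 (limma, Benjamini-Hochberg over all genes tested), where 68.8% of the 16462 genes tested did so, 34.4% as higher in IHCs and 34.4% as higher in OHCs. In 5 of 9 genes the libraries of the 2 cell types did not overlap, against 79.2% of all genes tested. The median absolute log2 difference was 0.17 over the 9 genes and 0.55 over all genes tested, and the signed medians were 0.01 and -0.01. The 5 genes that did not pass had differences between -0.10 and 0.17, whereas Rims2 stood at 4.80. Because the libraries are bulk RNA, fewer cells with a transcript and less of it per cell cannot be told apart for any of these genes.

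**Figure D2:**
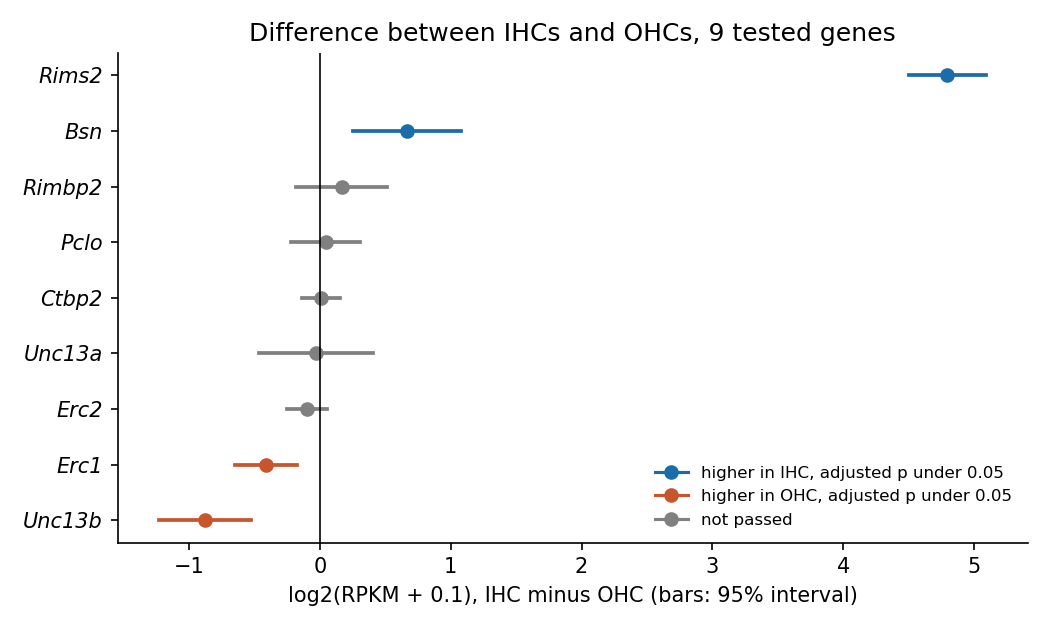
Difference between IHCs and OHCs of the 9 tested genes, on the log2(RPKM + 0.1) scale, positive where IHCs were higher. Points are limma estimates and bars 95% intervals (2 IHC and 3 OHC libraries). Rims2 lies at 4.80, Bsn at 0.66, Erc1 at -0.41 and Unc13b at -0.88, and the intervals of the 5 grey genes span 0.

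Ctbp2 (ENSMUSG00000030970, chr7:132987563-133124354, minus strand) was the most abundant member in both cell types. It was at 9.70 and 9.48 RPKM in the IHC libraries and at 9.96, 8.97 and 9.73 RPKM in the OHC libraries. The OHC libraries bracketed the IHC libraries, with 9.59 ± 0.156 (SD, n = 2) against 9.55 ± 0.518 (SD, n = 3). The log2 difference was 0.01 with a 95% interval of -0.14 to 0.15 (adjusted p = 0.929). Between 1172 and 1430 reads per library stood behind these values. The interval, which rests on the spread between libraries, allowed a difference of at most about 1.11-fold either way. The annotation holds 20 transcripts of Ctbp2, 12 of them coding, and the table has a single value per gene. RIBEYE and the corepressor form were therefore counted together, and the balance between the start inside the gene and the upstream starts was not measured. Of those upstream starts, the sequence above shows the RefSeq one, at which no GENCODE M21 transcript begins. Reads from the 5.05% of its exon bases that overlap Fgfr2 on the same strand could belong to either gene.

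Bsn (ENSMUSG00000032589, chr9:108096022-108190384, minus strand), whose product ties the ribbon to the membrane, was at 0.291 and 0.329 RPKM in IHCs and at 0.163, 0.146 and 0.166 RPKM in OHCs. Both IHC libraries lay above all OHC libraries, and the mean was 1.95-fold higher in IHCs (0.310 ± 0.0275 against 0.159 ± 0.0107). The log2 difference was 0.66 (SE 0.17, adjusted p = 0.0137). The reads were few, 103 and 107 in IHCs and 60, 49 and 53 in OHCs. The call was lost without IHC 1 (adjusted p = 0.0852), without IHC 2 (0.144) and with the second lanes only (0.0515), at log2 differences of 0.73, 0.60 and 0.64.

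Pclo (ENSMUSG00000061601, chr5:14514918-14863459, plus strand), which encodes the giant relative of bassoon, was at 1.21 and 1.13 RPKM in IHCs and at 1.09, 1.15 and 1.14 RPKM in OHCs. The libraries overlapped, and the log2 difference was 0.04 with an interval of -0.22 to 0.31 (adjusted p = 0.724, limma). Pclo was at 4.17 and 3.42 times the level of Bsn in the IHC libraries and at 6.71, 7.86 and 6.87 times in the OHC libraries, with no overlap. The mean log2 ratio was 1.92 in IHCs and 2.83 in OHCs, a difference of -0.92 (exact permutation test over 10 arrangements of the libraries, two-sided, p = 0.1, the smallest they can give). With 0.1 RPKM added to both levels before the ratio, the difference was -0.62. The annotation holds 4 transcripts of Pclo, 3 of them coding, and these were counted together.

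Of the RIM genes, Rims2 was tested and Rims1 was not. Rims2 (ENSMUSG00000037386, chr15:39198261-39684372, plus strand), which encodes a RIM that binds vesicle-bound Rab3 and helps to gather calcium channels, was at 7.06 and 7.03 RPKM in IHCs. In OHCs it was at 0.163, 0.141 and 0.168 RPKM. Every IHC library thus lay far above every OHC library, with means of 7.05 ± 0.0220 and 0.158 ± 0.0144 RPKM, a ratio of 44.7. The log2 difference was 4.80 (SE 0.12, interval 4.50 to 5.09, adjusted p = 1.93e-06). The reads were 793 and 723 in the IHC libraries and 19, 15 and 17 in the OHC libraries. Rims2 was called in all alternatives tried, with log2 differences from 2.80 (pseudocount 1) to 5.40 (pseudocount 0.01), and its exons overlap no other gene.

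Rims1 (ENSMUSG00000041670, chr1:22286251-22805994, minus strand), which encodes the relative of Rims2 that prevails at many brain synapses, was barely detected. It had 3 and 2 reads in the IHC libraries (0.0190 and 0.0139 RPKM) and 2, 2 and 0 reads in the OHC libraries (0.0122, 0.0134 and 0 RPKM). A count of 0 allows up to 3 reads, which is 0.0184 to 0.0212 RPKM in these libraries, for counting error only. Both cell types were thus at or near this limit, so no fold and no test is given, and no difference was detectable at this depth.

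The low Rims2 level in OHC libraries stood beside IHC markers that were also present there. Otof, which encodes the calcium sensor otoferlin, was 15.2-fold higher in IHCs. Slc17a8, which encodes the vesicular glutamate transporter of IHCs, was 17.9-fold higher. Calb2, Tbx2 and Slc7a14 were 17.8-fold, 28.4-fold and 29.9-fold higher, against 44.7-fold for Rims2. The part of IHC RNA in the OHC level of Rims2 was not tested. Neurons also express RIM and bassoon genes. Of 12 markers of cochlear nerve fibres, 7 were tested, of which Nefl (32.0 against 5.95 RPKM) and Nefm (7.33 against 3.78) were higher in IHCs and Nefh (1.27 against 4.49) and Slc17a7 (0.435 against 0.895) higher in OHCs. The reads of Nefm in lanes 1 and 2 were 683 and 270 in IHC 1 and 626 and 226 in IHC 2. In OHC 1 they were 259 and 186, against 242 and 231 in OHC 2 and 243 and 232 in OHC 3. The size of the Nefm difference thus depended on the lanes. The summed level of the 12 markers was 41.7 to 42.7 RPKM in IHC and 15.4 to 17.6 in OHC libraries, and Nefl made up most of it in IHCs. Prph, which marks the fibres to OHCs, and Chat, Slc18a3 and Th, markers of efferent fibres, had no reads in any library. Of 7 markers of Schwann cells and glia, 6 were tested, of which Sox10 (26.7 against 13.4 RPKM) was higher in IHCs and Mbp (0.904 against 1.88) and Pmp22 (0.408 against 0.916) higher in OHCs, with a summed level of 28.1 to 30.4 RPKM in IHC and 16.7 to 18.2 in OHC libraries. Sox10 made up most of the glial sum in both cell types. The part of fibre and glial RNA in the levels of Rims2 and Bsn was not tested.

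Rimbp2 (ENSMUSG00000029420, chr5:128757791-128953486, minus strand), whose product links RIM to calcium channels, was at 0.804 and 0.711 RPKM in IHCs and at 0.633, 0.624 and 0.737 RPKM in OHCs. OHC 3 lay between the IHC libraries, so the cell types overlapped. The log2 difference was 0.17 with an interval of -0.18 to 0.52 (adjusted p = 0.333, limma), on 104 to 142 reads per library.

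Of the ELKS genes, Erc1 was higher in OHCs and Erc2 did not pass. Erc1 (ENSMUSG00000030172, chr6:119570796-119848167, minus strand), whose ELKS protein binds RIM and bassoon and is widely expressed, was at 2.02 and 1.72 RPKM in IHCs and at 2.48, 2.54 and 2.52 RPKM in OHCs. All OHC libraries lay above both IHC libraries, and the mean was 1.34-fold higher in OHCs (2.52 ± 0.0332 against 1.87 ± 0.209). The log2 difference was -0.41 (SE 0.10, adjusted p = 0.0105). Without IHC 2, the lower IHC library, it was -0.30 and no longer passed (adjusted p = 0.0524). The predicted gene Gm44317 on the opposite strand overlaps 11.8% of the exon bases of Erc1, and reads there could belong to either gene.

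Erc2 (ENSMUSG00000040640, chr14:27622428-28478537, plus strand), whose CAST protein is found mostly at neuronal active zones, was at 4.35 and 4.14 RPKM in IHCs and at 4.47, 4.70 and 4.46 RPKM in OHCs. The libraries did not overlap, but the gap was small beside the spread, and the log2 difference of -0.10 (interval -0.25 to 0.06) did not pass (adjusted p = 0.212, limma). Erc2 exceeded Erc1 in every library, by 2.15 and 2.40 times in IHCs and by 1.77 to 1.85 times in the 3 OHC libraries. The mean log2 ratio was 1.18 in IHCs and 0.85 in OHCs, a difference of 0.33 (exact permutation test, two-sided, p = 0.1, the smallest possible). These ratios rest on the exon lengths behind the table. The length recovered for Erc1 was 10102 bases, against 16271 in the GENCODE M21 annotation.

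Of the Munc13 genes, Unc13a (ENSMUSG00000034799, chr8:71624417-71671757, minus strand), which encodes the priming factor of most central glutamatergic synapses, was at 0.741 and 0.708 RPKM in IHCs and at 0.603, 0.762 and 0.881 RPKM in OHCs. The OHC libraries bracketed the IHC libraries, and the log2 difference was -0.03 with an interval of -0.47 to 0.41 (adjusted p = 0.893, limma). Unc13b (ENSMUSG00000028456, chr4:43058953-43264871, plus strand), its relative at a subset of synapses, was at 0.245 and 0.248 RPKM in IHCs and at 0.518, 0.565 and 0.528 RPKM in OHCs. All OHC libraries lay above both IHC libraries, and the mean was 2.18-fold higher in OHCs (0.537 ± 0.0249 against 0.247 ± 0.00216, log2 difference -0.88, SE 0.14, adjusted p = 0.00248). The call held in each alternative in which Unc13b was tested. Its 115 to 124 reads in IHC and 240 to 272 reads in OHC libraries were the base of this difference.

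Unc13b was thus at 0.331 and 0.351 times the level of Unc13a in IHCs and at 0.859, 0.742 and 0.599 times in OHCs. The groups did not overlap, and the mean log2 ratios were -1.55 and -0.46, a difference of -1.09 (exact permutation test, two-sided, p = 0.1, the smallest possible). Adjusted over the 3 ratios tested, each of these p-values remained 0.1. Rims2/Rims1 was not computed as a ratio, as Rims1 had no read in OHC 3. The size of the Unc13b/Unc13a difference depended on the lanes, with -0.82 in the first and -1.41 in the second lanes. Unc13a in OHC 1 was the one case in which lanes of a library differed (118 reads in the first and 58 in the second lane, 0.808 and 0.399 RPKM, exact binomial test, adjusted p = 0.000356 over 49 tests). In each of the 5 libraries Unc13a was higher in the first lane. The second lanes of IHC 1, IHC 2 and OHC 1 were also left out, an alternative chosen after the data were seen. The same 4 scaffold genes then passed the test in the same directions. The log2 difference of Unc13b was then -0.72, and that of the Unc13b/Unc13a ratio was -0.94.

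**Figure D3:**
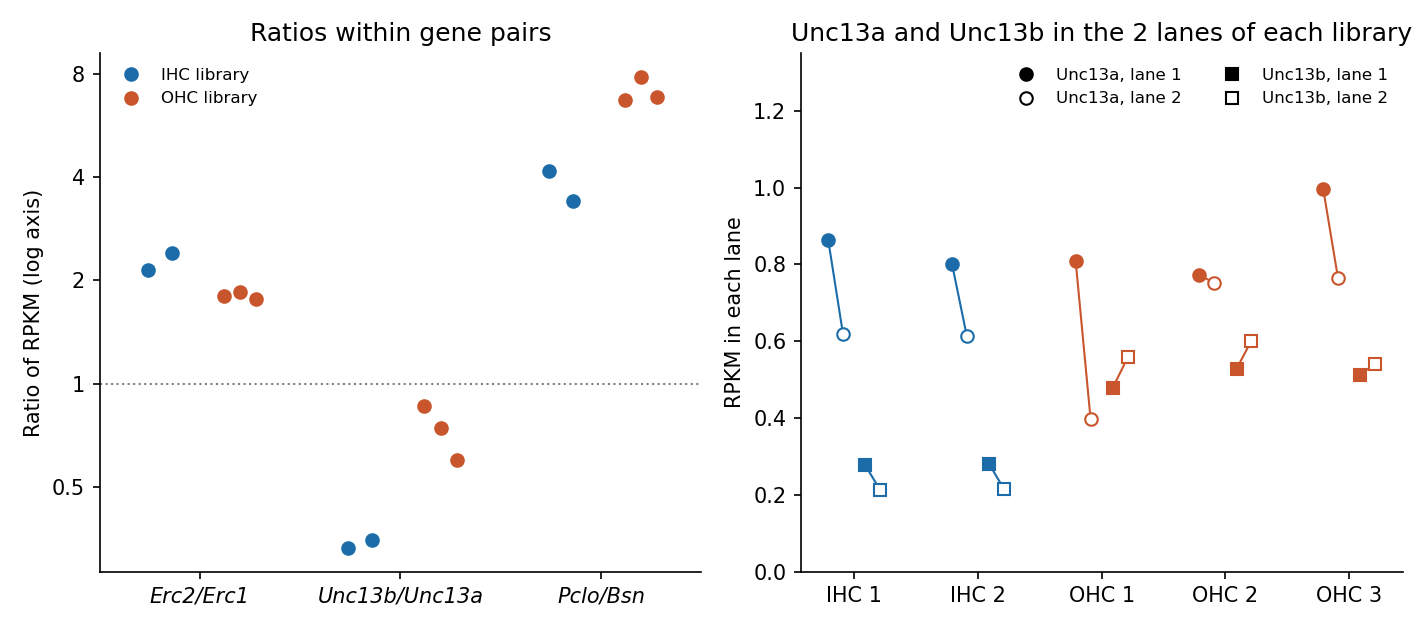
Ratios of RPKM within 3 gene pairs for each library, on a log axis (left), and the level of Unc13a and Unc13b in each lane, in RPKM (right, filled symbols for lane 1 and open symbols for lane 2). IHC and OHC points of each ratio do not overlap, and Unc13a in OHC 1 falls from 0.808 in lane 1 to 0.399 in lane 2.

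By level, the order in IHCs was Ctbp2, Rims2, Erc2, Erc1, Pclo, Rimbp2, Unc13a, Bsn, Unc13b and Rims1. In OHCs it was Ctbp2, Erc2, Erc1, Pclo, Unc13a, Rimbp2, Unc13b, Bsn, Rims2 and Rims1. Rimbp2 and Unc13a could not be ordered beyond the spread of the libraries in either cell type, nor could Bsn and Rims2 in OHCs. Ctbp2 exceeded 70.7% of the genes tested in IHCs and 70.9% in OHCs. Rims2 exceeded 65.1% in IHCs and 9.91% in OHCs, and its move from the second to the ninth place was the main difference between the orders. The order compares genes per exon length, and for 4 of them (Rims1, Rims2, Erc1 and Erc2) the length that gave whole reads was not the annotated one. For Rims2 it was 5046 bases against 10389, which bears on its place in the order and not on its ratio between cell types.

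Summed over the 10 genes, the level was 26.4 and 25.5 RPKM in IHCs and 20.1, 19.6 and 20.3 RPKM in OHCs. Without Rims2 it was 19.4 and 18.5 RPKM in IHCs and 19.9, 19.5 and 20.2 RPKM in OHCs. The IHC libraries were thus above the OHC libraries with Rims2. Without it they were below (18.93 ± 0.635 against 19.86 ± 0.3545 RPKM), but the gap between IHC 1 and OHC 2 was small beside this spread. Rims2 made up 27.1% ± 0.602 of the sum in IHCs and 0.787% ± 0.0579 in OHCs. Ctbp2 made up 36.9% ± 0.333 and 47.7% ± 1.92, Erc2 16.3% ± 0.152 and 22.7% ± 1.09, and Erc1 7.20% ± 0.621 and 12.6% ± 0.345. Unc13b made up 0.950% ± 0.0324 and 2.69% ± 0.171, and Bsn 1.10% and 1.29% in the IHC and 0.746% to 0.818% in the OHC libraries. Without the second lanes of IHC 1, IHC 2 and OHC 1, the mean IHC share of Unc13b was 1.055%. The mean IHC share then moved from 2.788% to 3.147% for Unc13a and from 0.06317% to 0.05027% for Rims1. Shares sum to a fixed total, so a lower share of Rims2 goes with higher shares of the other genes. The sums and shares also rest on the recovered lengths, and with its longer annotated length the level and share of Rims2 would be lower in both cell types.

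**Figure D4:**
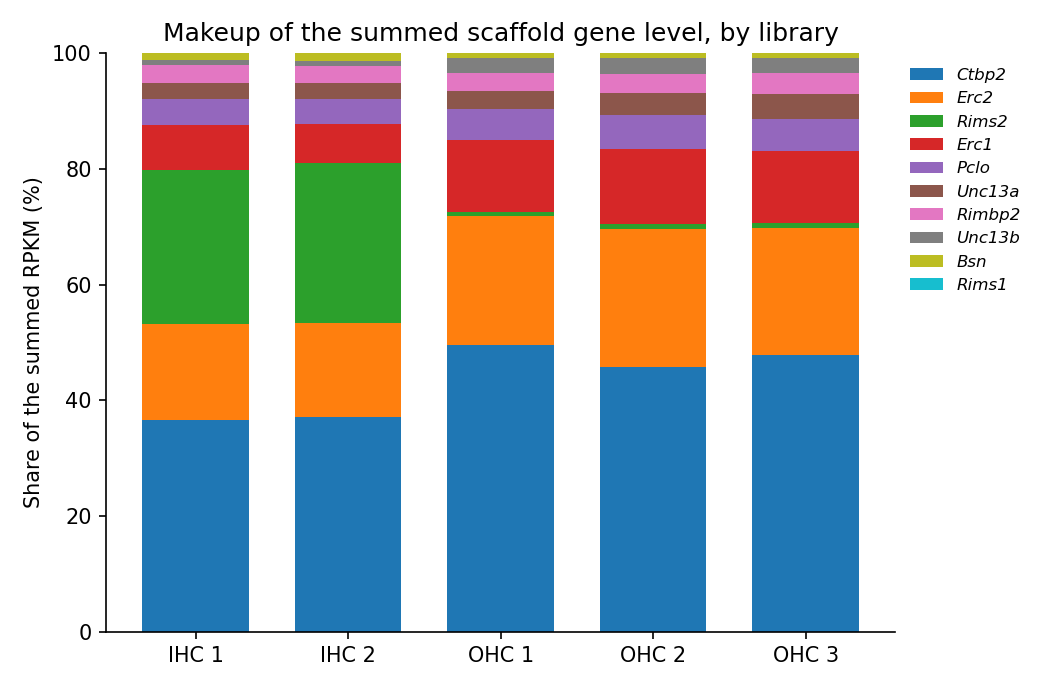
Share of each scaffold gene in the summed RPKM of the 10 genes, in percent, for each library. Each bar is 1 library and adds up to the whole. The Rims2 band fills 26.7% and 27.6% of the IHC bars and 0.720% to 0.828% of the OHC bars.

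Relatives of these genes outside the set were followed as well. Of 8 paralogues, 5 were tested and all 5 passed, 2 as higher in IHCs and 3 as higher in OHCs. Among all genes tested 68.8% passed, 34.4% in each direction. The median log2 difference of the paralogues was -0.41, the value of Baiap3, against -0.01 over all genes tested. Ctbp1, the relative of Ctbp2 that has no ribbon form, was at 58.0 and 57.8 RPKM in IHCs and 42.3, 42.4 and 42.6 RPKM in OHCs (1.36-fold higher in IHCs). Rims3, which encodes a short RIM without the domain that binds Rab3, was at 5.29 and 5.08 RPKM in IHCs and at 10.9, 10.7 and 11.2 RPKM in OHCs. It was thus 2.11-fold higher in OHCs, the direction opposite to that of Rims2. Rims4, another short RIM, had 1 and 0 reads in IHCs and 17, 8 and 13 reads in OHCs (log2 difference -1.05, adjusted p = 0.0089). Unc13d, a Munc13 of secretion in blood cells, was at 2.65 ± 0.183 RPKM in IHCs and 0.955 ± 0.143 in OHCs (2.77-fold higher in IHCs). Both IHC libraries (2.78 and 2.52 RPKM) thus held more Unc13d than Unc13a or Unc13b. Baiap3, a more distant Munc13 relative, was at 0.335 and 0.327 RPKM in IHCs and 0.491, 0.437 and 0.489 RPKM in OHCs. It was 1.43-fold higher in OHCs (adjusted p = 0.0463, limma). Its reads in lanes 1 and 2 were 28 and 10 in IHC 1 and 24 and 10 in IHC 2. In OHC 1 they were 45 and 13, against 25 and 22 in OHC 2 and 23 and 27 in OHC 3. In lane 1 the IHC reads (28 and 24) lay within the range of the OHC reads (23 to 45). The Baiap3 call thus rests in part on the second lanes of IHC 1, IHC 2 and OHC 1, and a test without them is not given. Bzrap1, Rimbp3 and Unc13c stayed below the filter. Rimbp3 had no reads in IHCs and 9, 9 and 8 in OHCs, at least 2.89-fold higher in OHCs against a floor of 3 reads per library.

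Of 22 genes whose products bind the scaffold, 19 were tested, 14 higher in IHCs, 2 higher in OHCs and 3 not passed, with a median log2 difference of 0.51. Over all genes tested 68.8% passed, 34.4% in each direction, with a median of -0.01. Lin7b, which encodes a PDZ protein of the CASK complex, was at 10.3 ± 0.712 RPKM in IHCs and 1.41 ± 0.0920 in OHCs (7.34-fold). Ppfia4, which encodes a liprin-alpha, was at 3.04 ± 0.0166 and 0.849 ± 0.0360 RPKM (3.57-fold). Rab3a, which encodes the vesicle protein that RIM binds, had the highest mean of the list, with 125 ± 0.493 and 89.8 ± 2.73 RPKM (1.40-fold). The CAPS genes, which encode factors of vesicle priming, were split between the cell types. Cadps2 was at 1.52 ± 0.139 RPKM in IHCs and 0.186 ± 0.0163 in OHCs (8.14-fold), whereas Cadps had no reads in IHCs and 0.343 ± 0.0573 RPKM in OHCs, at least 13.5-fold higher against a floor of 3 reads per library. Git2, named after its values were seen, was the other partner higher in OHCs (1.43 ± 0.127 against 1.99 ± 0.0879 RPKM).

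Of 8 channel and release genes of the ribbon synapse, 6 were higher in IHCs, 1 was higher in OHCs and 1 did not pass, with a median log2 difference of 2.50, where again 34.4% of all genes tested passed in each direction. The calcium-binding protein genes Cabp1 (12.4 ± 0.0296 against 0.327 ± 0.130 RPKM) and Cabp4 (2.51 ± 0.433 against 0.0116 ± 0.0201) and the transporter and sensor genes Slc17a8 and Otof had the largest differences. Cabp2 had the highest mean (1348 ± 4.05 against 635 ± 12.0 RPKM). Otof and Slc17a8 are also among the IHC markers above, so the count and the median follow in part from that choice. Cacna1d, which encodes the pore of the hair cell calcium channel and is named here after its values were seen, was the gene higher in OHCs (5.35 ± 0.148 against 29.1 ± 0.315 RPKM, 5.44-fold). The differences of these lists and of the scaffold genes were not tested against each other.

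**Figure D5:**
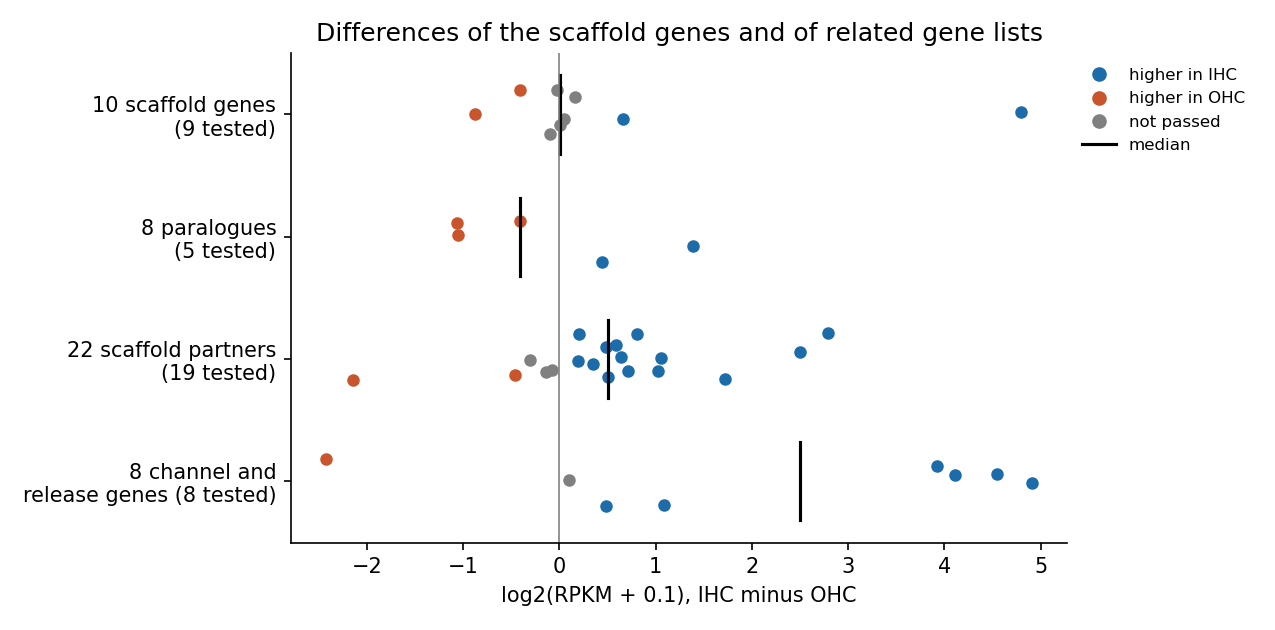
Differences between IHCs and OHCs on the log2(RPKM + 0.1) scale for the tested members of 4 gene lists. The channel and release genes include the IHC markers Otof and Slc17a8. Each point is a gene, coloured by whether it passed the test, and black lines are medians, at 0.01 for the scaffold genes, -0.41 for the paralogues, 0.51 for the partners and 2.50 for the channel and release genes.

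Finally, the genes nearest to Ctbp2 and to Rims2 in their log2 levels over the 5 libraries were listed, as a description. Nearest to Ctbp2 were Fbxw8, Dhx40, Vps36, Taf3 and Slc31a1, at distances of 0.042 to 0.10 log2 units (Euclidean). Fbxw8 was at 9.60 RPKM in IHCs and 9.45 in OHCs. Nearest to Rims2 were Gdnf, Myot, Fcna, Dgkg and Herc6, at larger distances of 0.34 to 0.74. Gdnf, which encodes a neurotrophic factor, was at 7.29 RPKM in IHCs and 0.167 in OHCs, close to the 7.05 and 0.158 of Rims2.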

How the data were processed

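Reads were 100-base pairs from SMARTer and Nextera libraries of 2 IHC and 3 OHC pools. The authors mapped them to GRCm38 (mm10) with CLC Genomics Workbench, derived gene estimates with HTSeq count and deposited RPKM values, 1 column per lane (10 columns, summing to 364052 to 399131). Versions are not given in the sources used here.

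The mean of both lanes was taken for each library, which was the replicate. Genes that reached 0.1 RPKM in 2 or more libraries were tested on log2(RPKM + 0.1) with limma 3.58.1 (R 4.3.3, trend), IHC minus OHC, with Benjamini-Hochberg adjustment over 16462 genes and a threshold of 0.05. This scale understates the change of low genes. Gene positions came from GENCODE M21 (GRCm38), which lacks 382 of the genes. Reads were recovered as RPKM times exon length times the lane's divisor, with the annotated length where it gave whole reads in all 10 lanes (within 1e-04) and otherwise the shortest length that did. At the annotated length 69.8% to 70.6% of detected values were whole. Ratios within gene pairs were compared by exact permutation over libraries and lanes by exact binomial tests. Intervals of log2 differences are limma's and rest on the spread between libraries, and floors cover counting error only.

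The 10 genes and all lists were chosen with earlier results of these data known. The rule for names took in all 10 members, the paralogues, the cell type markers (of which some are given by counts and sums only), of each other list up to 4 passing genes with the largest absolute log2 difference and the gene of highest mean, and the 5 genes nearest to Ctbp2 and to Rims2 (without pseudogenes and predicted genes). A further OHC marker is not reported here. Alternatives were the pseudocount, the filter, median-of-ratios and quantile scaling, single lanes, the 7 lanes without the second lanes of IHC 1, IHC 2 and OHC 1 (added after the data were seen), limma untrended or robust, a block for the replicate number, and leaving out each library.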

Additional observations from a re-analysis of the deposited data

How the results depend on the processing

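With a filter at 1 RPKM, which left Bsn, Rimbp2, Unc13a and Unc13b untested, 1 scaffold gene was higher in IHCs and 1 in OHCs. With the second lanes only, 1 was higher in IHCs. Without each library in turn, 1 to 2 were higher in IHCs and 1 to 2 in OHCs, and where 1 IHC library was left, it was assumed to vary like the OHC libraries. With the replicate number as a block, 1 was higher in IHCs (Rims2) and 1 in OHCs (Unc13b), and Bsn (adjusted p = 0.0705, limma) and Erc1 (adjusted p = 0.0546, limma) no longer passed. IHC and OHC libraries of the same number did not deviate together across genes (r = 0.01 for number 1 and -0.02 for number 2). With 2 IHC libraries their deviations mirror each other, so these values cannot show whether the numbers pair the libraries. The difference of the Unc13b/Unc13a log2 ratios was -0.82 in the first and -1.41 in the second lanes, and that of Pclo/Bsn was -0.62 with a pseudocount of 0.1. Rims2 and Unc13b passed in every alternative in which they were tested, and Ctbp2, Pclo, Rimbp2, Erc2 and Unc13a passed in none. The median log2 difference of all genes lay between -0.04 and 0.06 over the alternatives. Depth limits Rims1 (at most 3 reads per library) and leaves Bsn and the OHC level of Rims2 on 15 to 107 reads per library.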
